A study of Homo sapiens with 5 samples.

Results

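The genes of major histocompatibility complex (MHC) class I antigen presentation were examined for binding of PHF8, an enzyme that removes methyl groups from histone tails, at their promoters. The set was a list of 9 genes (HLA-B, HLA-C, B2M, TAP1, TAP2, TAPBP, NLRC5, PSMB8 and PSMB9) among 20157 protein-coding genes. A peak belonged to a gene when it overlapped the 1000 bp on either side of any annotated transcription start site (TSS) of that gene. Chromatin immunoprecipitation followed by sequencing (ChIP-seq) was carried out against PHF8 in the established human melanoma line SKMEL-147. The 5 samples are ChIP replicates A, B1 and B2 (n = 3) and 2 input chromatin libraries named A and B. The labels give the cell line and the antibody and name neither a treatment nor a genotype for any sample, although the design text mentions a PHF8 loss-of-function line made with guide RNAs. The names of the peak lists carry the letters scr, which the labels do not explain. The study writes sgScr for its scrambled control guide RNA. These cells may thus have carried that control guide, but this is not known here. The inputs entered only through the fold enrichment that the peak caller computed, so there was 1 group and no contrast between conditions. The labels do not say whether the replicates came from separate cultures, and B1 and B2 share a letter with each other and with input B, which A does not. They are counted as 3 replicates, but B1 and B2 may be more alike than either is to A. Any p-value therefore measures only the spread between these libraries, which may be technical.

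Class I molecules show peptides from inside the cell to cytotoxic T cells. A heavy chain (HLA-B, HLA-C) pairs with the light chain β2-microglobulin (B2M). The proteasome cuts proteins into peptides, and its interferon-inducible catalytic subunits PSMB8 and PSMB9 replace constitutive subunits. The transporter made of TAP1 and TAP2 carries peptides into the endoplasmic reticulum, where tapasin (TAPBP) bridges it to the empty class I molecule. NLRC5 is the transactivator of class I genes and acts through a multiprotein complex on their promoters. Loss of this pathway is a known route by which melanoma escapes T cells.

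The peak lists held 21506 peaks in A, 20882 in B1 and 20120 in B2. The median peak rested on 54, 39 and 40 ChIP fragments at its summit, and its fold enrichment (ChIP over local background, a linear ratio) was 18.9 in A and 11.8 in either B replicate. Because the scale differed between lists, each member's strongest promoter peak was also ranked within its replicate, as a percentile among the strongest promoter peaks of the 12139 protein-coding genes bound in all 3 replicates. Peaks do not measure expression, so the melanocytic identity of the line could be looked at only as promoter peaks. MITF, SOX10 and PMEL had a peak in all 3 replicates, and MLANA, TYR and DCT had none in any. Of all protein-coding genes, 60.2% had a promoter peak in all 3. SOX10 was the weakest of the bound markers, at a fold enrichment of 7.27, 8.18 and 6.90 in A, B1 and B2. Its mean percentile was 5.47.

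The promoter sequences below are shown because promoter peaks of the class I genes covered all or part of each in every replicate. They were read from GRCh37 (the same build as hg19), 5′ to 3′ on the strand of the gene. Capitals mark matches, on either strand, to the motifs searched: the interferon-stimulated response element (ISRE; GAAA, any 2 bases, GAAA), the gamma-activated site (GAS; TTC, any 3 bases, GAA), CCAAT, the GC box (GGGCGG), the NF-κB consensus and the E-box (CACGTG). The first 3 runs lie upstream of the TSS of the reference (MANE Select) transcript, and that of HLA-B stops short of it by 84 bases. The last run is most of the stretch between TAP1 and the next PSMB9 TSS, read on the TAP1 strand so that it ends beside TAP1.
HLA-B, chr6:31325041-31325156, minus strand: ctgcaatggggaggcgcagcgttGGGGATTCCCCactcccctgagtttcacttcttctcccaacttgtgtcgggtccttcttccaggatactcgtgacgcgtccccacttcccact
HLA-C, chr6:31239870-31240069, minus strand: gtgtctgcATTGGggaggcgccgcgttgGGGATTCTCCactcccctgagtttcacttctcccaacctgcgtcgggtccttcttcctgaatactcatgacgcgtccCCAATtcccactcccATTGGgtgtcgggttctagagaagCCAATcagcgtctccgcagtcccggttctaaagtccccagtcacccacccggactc
B2M, chr15:45003515-45003714, plus strand: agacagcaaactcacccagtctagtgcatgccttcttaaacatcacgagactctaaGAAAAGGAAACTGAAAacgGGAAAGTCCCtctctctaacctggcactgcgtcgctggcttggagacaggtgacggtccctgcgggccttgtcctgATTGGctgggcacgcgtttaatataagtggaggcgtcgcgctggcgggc
TAP1 and PSMB9, chr6:32821594-32821893, minus strand: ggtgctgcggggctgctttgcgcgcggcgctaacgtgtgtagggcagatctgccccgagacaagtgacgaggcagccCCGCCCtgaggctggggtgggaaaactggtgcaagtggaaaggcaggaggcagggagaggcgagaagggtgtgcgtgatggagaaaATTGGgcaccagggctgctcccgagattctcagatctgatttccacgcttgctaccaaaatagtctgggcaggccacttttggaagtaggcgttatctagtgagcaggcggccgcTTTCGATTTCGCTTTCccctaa
In HLA-B the capitals are overlapping NF-κB matches, and in HLA-C they are 1 NF-κB match and 4 CCAAT boxes. In B2M the first capitals hold 2 overlapping ISRE matches, followed by an NF-κB match and a CCAAT box on the opposite strand. Between TAP1 and PSMB9 there were 2 overlapping ISRE matches at the TAP1 end, with a CCAAT box and a GC box farther out.

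PHF8 was found at the promoter of every member of the class I set. All 9 members had a promoter peak in each of the 3 replicates, where 12139 of 20157 protein-coding genes (60.2%) did. At a fold enrichment above 10 in all 3 replicates the count was still 9 of 9, beside 10001 protein-coding genes (49.6%). Above 20 it was 2 of 9, beside 4789 genes (23.8%), and these 2 were TAP1 and PSMB9, whose strongest peak is the same. The 9 genes thus gave 8 distinct strongest peaks in each replicate. Over these peaks the −log10 q-value ranged from 35.0 to 181, the number of fragments at the summit from 48 to 149, and the width from 335 to 1660 bp. The 8 peaks had a median fold enrichment of 33.9, 16.7 and 14.7 in A, B1 and B2. The medians over all bound protein-coding genes were 33.4, 19.4 and 18.4. The class I promoters were thus bound at a level near the middle of bound genes in A and below the middle in B1 and B2, with no test made of the set.

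**Figure D1:**
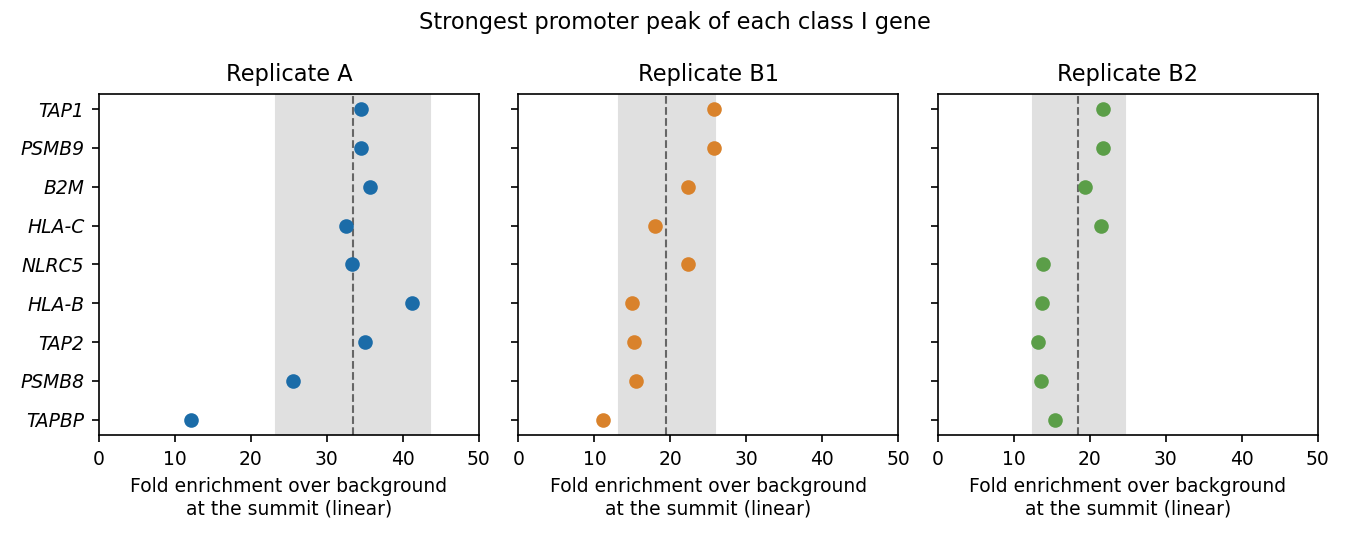
Fold enrichment (linear) of the strongest promoter peak of each class I gene in replicates A, B1 and B2; the dashed line is the median and the grey band the interquartile range of bound protein-coding genes in that replicate. TAPBP is the lowest member in A (12.2) and B1 (11.1), and HLA-B is the highest in A (41.2).

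HLA-B (ENSG00000234745, minus strand of chromosome 6), a classical heavy chain, varied most in rank of all members between replicates. Its strongest peak spanned 31324564 to 31325416 in A, 31324649 to 31325362 in B1 and 31324693 to 31325027 in B2. Fold enrichment reached 41.2, 14.9 and 13.6 in A, B1 and B2. The summits rested on 123 fragments in A (95% exact Poisson interval 102 to 147), against 52 (38.8 to 68.2) in B1 and 49 (36.3 to 64.8) in B2. Replicate A was far above the B replicates, also after ranking, with a percentile of 69.2 against 29.6 in B2 and a similar rank in B1. Summits lay 54, 61 and 89 bp downstream of the nearest TSS, in a coding exon in A and B1 and in an intron in B2. A second, weaker peak farther into the gene was present in all 3 replicates, at 5.73, 5.06 and 5.20, and B2 had a further one upstream at 6.28. An unprocessed pseudogene on the opposite strand (ENSG00000271581) shared the strongest peak.

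HLA-C (ENSG00000204525, minus strand of chromosome 6) carried a single promoter peak of nearly constant position. It spanned 31239222 to 31240332 in A, and the 3 peaks had 1060 bp in common. Fold enrichment reached 32.6, 18.0 and 21.4 in A, B1 and B2, on 97, 54 and 67 fragments, and HLA-C thus ran higher in B2 than in B1. Summits fell in an intron 66 to 81 bp downstream of the nearest TSS. A long non-coding RNA on the opposite strand (ENSG00000288813) shared the peak, with its TSS 268 bp from the median summit.

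HLA genes resemble each other, so the uniqueness of the sequence under the peaks was measured with runs of 32 bases. In HLA-B 12.7%, 10.8% and 8.55% of such runs under the strongest peak in A, B1 and B2 also occurred elsewhere in the genome, and in HLA-C 14.1%, 14.3% and 14.5% did. In the peaks of the other 7 members the share was 0%. The effect of reads that could be placed at more than 1 site on the HLA-B and HLA-C values was not tested. Uniqueness was measured only under peaks of the members, and not for the other HLA genes named below, such as HLA-G.

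B2M (ENSG00000166710, plus strand of chromosome 15), the light chain that pairs with heavy chains such as HLA-B and HLA-C, ranked steadily. Its strongest peak spanned 45003105 to 45004151 in A, 45003649 to 45004330 in B1 and 45003260 to 45004111 in B2. Fold enrichment reached 35.7, 22.3 and 19.4 in A, B1 and B2, on 99, 74 and 67 fragments. The percentiles were 56.1, 62.1 and 55.1, all above the middle of bound genes. Summits lay 112 to 138 bp downstream of the nearest TSS, in an intron. B1 had a second peak upstream at 9.71, where A and B2 had a single longer one. PATL2, a protein-coding gene on the opposite strand, shared the peak in all 3 replicates, its TSS 327 bp from the median summit, and the peak cannot be assigned to B2M alone.

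**Figure D2:**
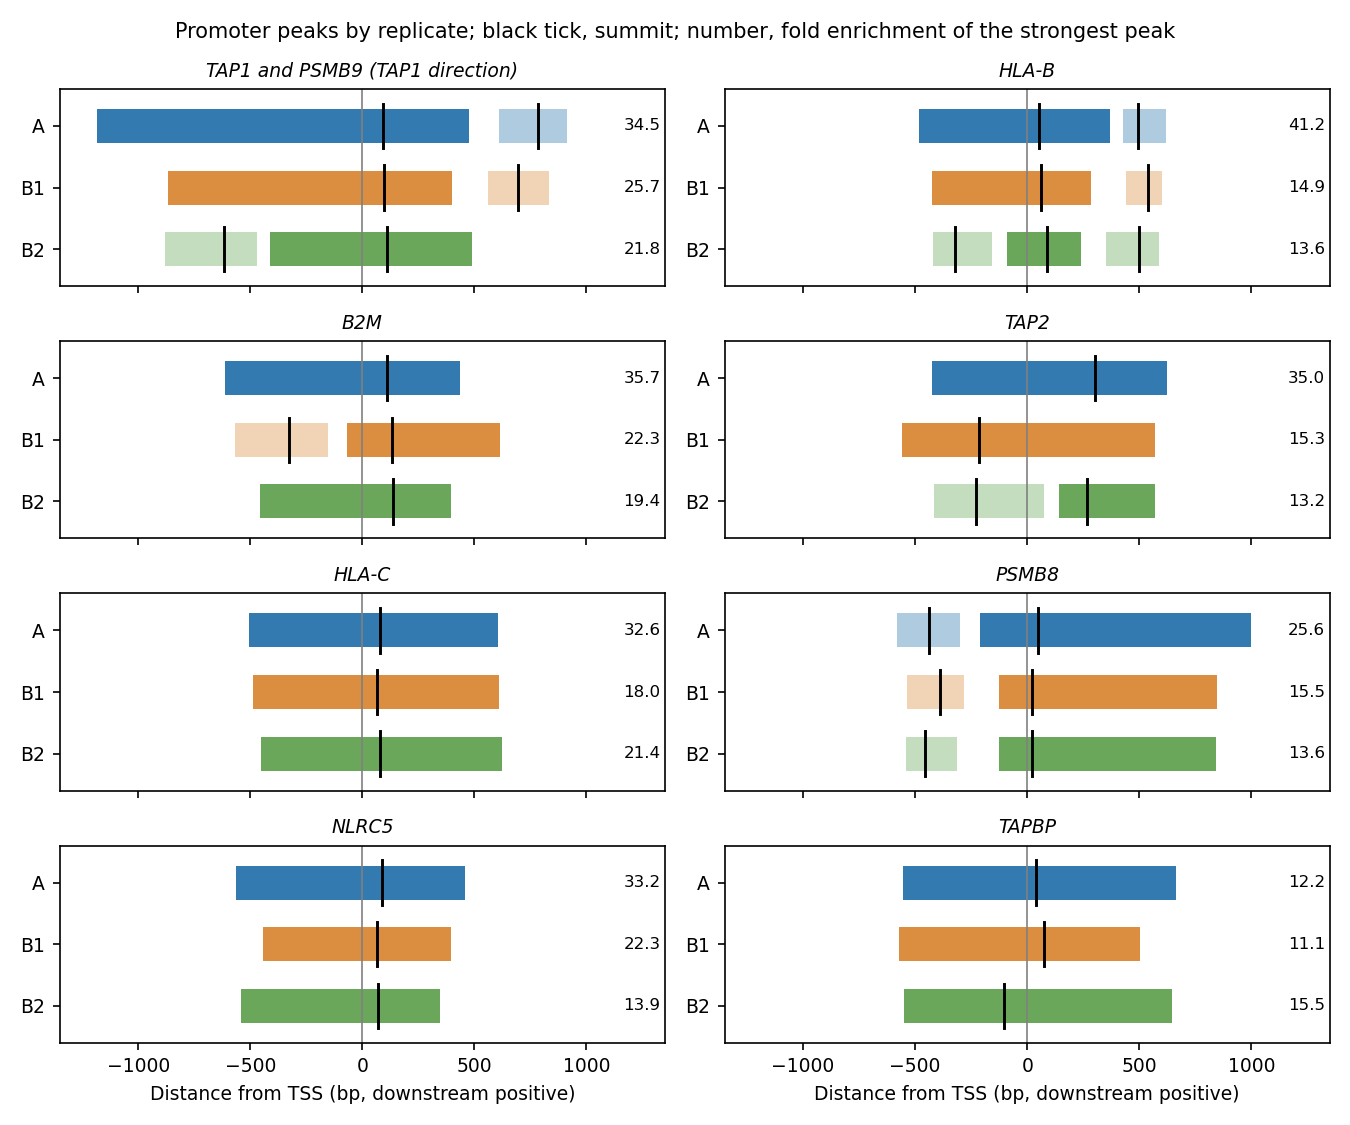
Promoter peaks of the class I genes in each replicate, drawn to scale as distance from the TSS in bp along the direction of the gene; dark bars are the strongest peaks, pale bars the weaker ones, black ticks the summits and numbers the fold enrichment of the strongest peak. HLA-C has 1 peak of about the same extent in each replicate, whereas the summits of TAP2 spread over 520 bp.

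TAP1 (ENSG00000168394, minus strand of chromosome 6) and PSMB9 (ENSG00000240065, plus strand) shared the peak with the highest mean fold enrichment of the set (27.3 ± 6.52, SD, n = 3), although in A it was below those of HLA-B, B2M and TAP2. It spanned 32820981 to 32822640 in A, 32821058 to 32822326 in B1 and 32820967 to 32821870 in B2. Fold enrichment reached 34.5, 25.7 and 21.8 in A, B1 and B2, on 149 fragments (95% interval 126 to 175), 102 (83.2 to 124) and 90 (72.4 to 111). The percentiles were 52.7, 74.8 and 64.7, all above the middle. The summit was close to TAP1, 94 to 110 bp downstream of its nearest TSS and in its coding sequence, while it lay upstream of the nearest PSMB9 TSS, at −561 to −577 bp. Only 332 bp separate the outermost TAP1 TSS from that PSMB9 TSS. B2 alone had a separate weaker peak on the PSMB9 side, at 10.3, with its summit 106 bp downstream of another, nearer PSMB9 TSS. A weak peak farther into TAP1 was listed in A (5.00) and B1 (3.43) and not in B2.

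TAP2 (ENSG00000204267, minus strand of chromosome 6), the partner subunit of the transporter, had a broad bound region with a summit that was not stable. Its strongest peak spanned 32805554 to 32806603 in A, 32805607 to 32806736 in B1 and 32805608 to 32806038 in B2. Fold enrichment reached 35.0, 15.3 and 13.2 in A, B1 and B2, on 105, 62 and 50 fragments, with A again well above the B replicates. Summits lay 304 bp downstream of the nearest TSS in A and 268 bp in B2, in a coding exon, and 64 bp in B1, in an intron. In B2 a second peak at 12.5 covered the position of the B1 summit, so in B2 the region held 2 adjacent maxima of nearly equal height. A protein-coding readthrough record (ENSG00000250264) on the same strand shared the peak.

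TAPBP (ENSG00000231925, minus strand of chromosome 6), the tapasin gene, had the lowest mean value. Its single peak spanned 33281154 to 33282373 in A, 33281314 to 33282391 in B1 and 33281171 to 33282366 in B2. Fold enrichment reached 12.2, 11.1 and 15.5 in A, B1 and B2, on 60 fragments (45.8 to 77.2), 48 (35.4 to 63.6) and 53 (39.7 to 69.3). TAPBP was the only member with its highest value in B2, and its percentiles were 6.45, 17.6 and 37.7. The fragment counts overlapped in their intervals, and the local background at the summit was 4.02, 3.40 and 2.49 fragments. The part of the background in the order of the replicates was not tested. Of 17 annotated TSSs, 16 had a peak within 1000 bp in every replicate.

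Of the proteasome subunits, PSMB8 (ENSG00000204264, minus strand of chromosome 6) was low and steady. Its strongest peak spanned 32811336 to 32812544 in A, 32811488 to 32812459 in B1 and 32811491 to 32812462 in B2. Fold enrichment reached 25.6, 15.5 and 13.6 in A, B1 and B2, on 95, 56 and 51 fragments, with percentiles of 30.1, 34.6 and 29.2. Summits lay 20 to 49 bp downstream of the nearest TSS, in a UTR. A second peak, at −265 to −332 bp from the nearest TSS, was present in every replicate at 14.2, 7.36 and 6.78. The antisense transcript PSMB8-AS1 and an alternative upstream TSS of PSMB9 shared the strongest peak, so PSMB9 had bound start sites on either side of TAP1.

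**Figure D3:**
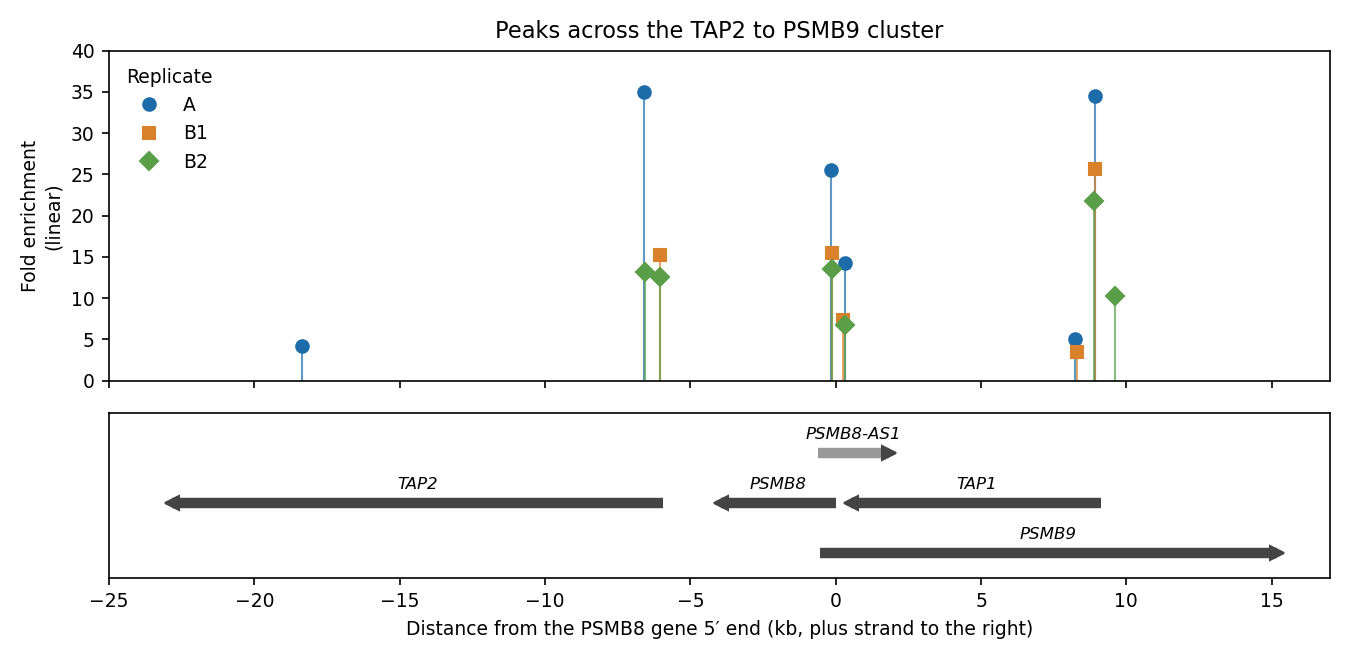
Summits of all peaks across the TAP2 to PSMB9 interval (38019 bp); the x axis is distance from the 5′ end of PSMB8 in kb, the y axis linear fold enrichment, symbols and colours are replicates and arrows below are gene records. The summits gather at the TAP2, PSMB8 and TAP1 start sites, and the only summit away from them is in A, at 4.19 within TAP2.

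TAP2, PSMB8, TAP1 and PSMB9 lie side by side within 38019 bp of the class II part of the MHC. This interval held 6 peaks in A, 5 in B1 and 6 in B2. Each, except the 1 peak at 4.19 within TAP2 in A, overlapped the promoter window of a member. The 5′ ends of PSMB8 and TAP1 are 9137 bp apart, and no peak summit was listed between the group at PSMB8 and the group at TAP1 in any replicate.

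NLRC5 (ENSG00000140853, plus strand of chromosome 16), the regulator of the pathway, had a single peak at its most upstream start sites. It spanned 57022943 to 57023963 in A, 57023061 to 57023900 in B1 and 57022964 to 57023852 in B2. Fold enrichment reached 33.2, 22.3 and 13.9 in A, B1 and B2, on 99, 79 and 51 fragments, with percentiles of 49.8, 62.1 and 30.6. B1 and B2 thus differed at this gene although their lists were alike in scale. Summits lay 64 to 90 bp downstream of the nearest TSS, in an intron. NLRC5 has 28 annotated TSSs over 94047 bp, of which 5 had a peak in every replicate and 23 did not. Inside the gene and away from all start sites 2 weak peaks were listed in A (5.81 and 5.17) and none in B1 or B2.

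Ordered by mean log2 fold enrichment, the members ran from TAP1 (with PSMB9) through B2M, HLA-C, NLRC5, HLA-B, TAP2 and PSMB8 to TAPBP. Their mean percentiles were 64.1 ± 11.0 for TAP1 and PSMB9 (SD, n = 3), 57.8 ± 3.78 for B2M, 52.0 ± 9.84 for HLA-C, 47.5 ± 15.9 for NLRC5, 43.6 ± 22.2 for HLA-B, 38.5 ± 13.7 for TAP2, 31.3 ± 2.91 for PSMB8 and 20.6 ± 15.8 for TAPBP. No neighbours in this order differed beyond their spread. In 7 neighbouring pairs the mean log2 difference never exceeded its SD over the replicates, and no pair kept the same direction in all 3. The exact two-sided sign-flip permutation test, whose smallest possible p with 3 replicates is 0.25, gave an adjusted p of 1 for each pair. The ends of the order, picked after their values were seen, differed in the same direction in every replicate, TAP1 minus TAPBP being 1.505 in A, 1.21 in B1 and 0.49 in B2 on the log2 scale (mean 1.07 ± 0.52, SD, n = 3).

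The balance between replicates set HLA-B, TAP2 and TAPBP apart from the other members. Over all bound protein-coding genes, fold enrichment in A was above the mean of B1 and B2 by a median of 0.80 on the log2 scale, with 5% of genes below 0.17 and 5% above 1.36. HLA-B stood at 1.53, which is the 98.0th percentile of bound genes, and TAP2 at 1.30 (93.4th). TAPBP stood at −0.13 (1.16th), with A below the B replicates. The other members fell between 0.54 and 0.88. Between the B replicates, the log2 ratio of B1 over B2 was 0.68 at NLRC5 (98.5th percentile) and −0.47 at TAPBP (2.22nd).

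**Figure D4:**
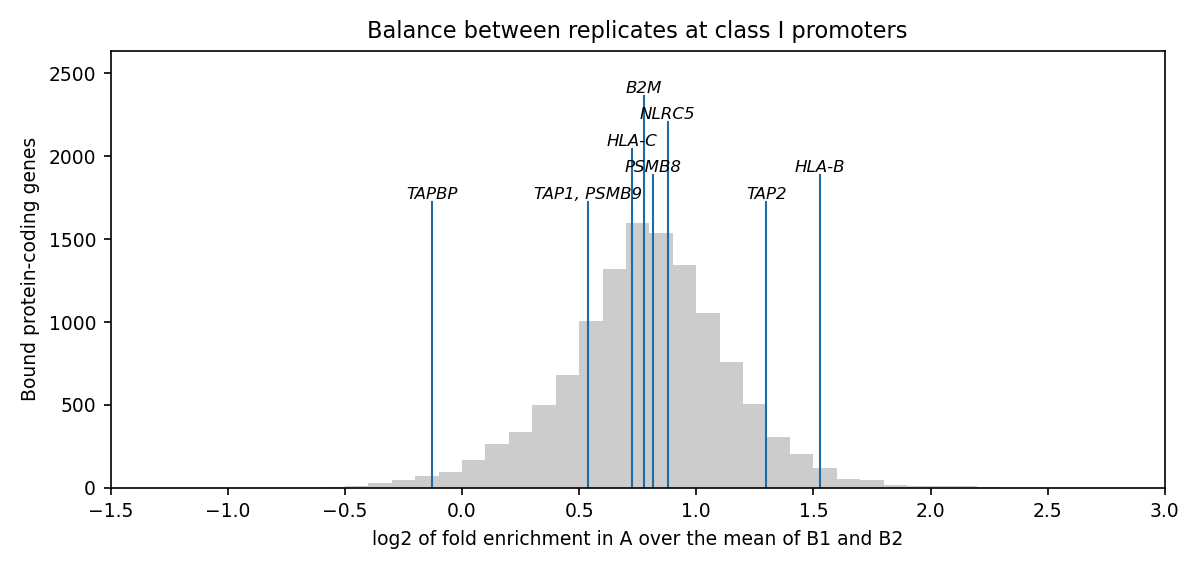
Histogram of the log2 ratio of fold enrichment in A over the mean of B1 and B2 for 12139 bound protein-coding genes (grey bars, number of genes per bin of 0.1), with the class I genes as vertical lines whose heights only separate the names. HLA-B (1.53) and TAP2 (1.30) lie on the right and TAPBP (−0.13) on the left.

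Summits of most members sat just inside the genes, as they did for most bound genes. The summit was downstream of the gene's nearest TSS in 8 of 9 members in A, 7 in B1 and 8 in B2, beside 65.8%, 65.9% and 66.2% of all bound protein-coding genes. The exceptions were PSMB9 in every replicate and TAPBP in B1, at −12 bp. Peaks away from all start sites of a gene were few and weak. Besides those in NLRC5 and TAP2, and the weak peaks in TAP1, which lie inside the PSMB9 record, they were at 4.08 in B1 and 2.76 in B2 near the 3′ end of TAPBP, and no member had such a peak in all 3 replicates.

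Sequence at the start sites was CpG-island-like for all members but PSMB8, though poorer in CpG than at the median bound gene. Within 250 bp of the TSS nearest to the summit, 8 of 9 members were CpG-island-like (GC share of at least 0.5 and observed over expected CpG of at least 0.6), as were 67.0% of all protein-coding genes. PSMB8 had a GC share of 58.5% and an observed over expected CpG of 0.56. This ratio reached 0.80 at NLRC5, the highest member, and TAP2 (0.609) and TAPBP (0.615) were just above the cutoff. Its median was 0.85 over bound protein-coding genes and 0.34 over other protein-coding genes, and every member lay between these medians. For genes not bound in all 3 replicates the TSS was the 5′ end of the gene record, so the CpG class depended in part on binding. The effect of this on the shares was not tested. Of protein-coding genes with a CpG-island-like TSS, 11227 of 13503 (83.1%) had a promoter peak in all 3 replicates. Of 150 protein-coding genes with their 5′ end in the MHC interval from HLA-F to TAPBP, 95 (63.3%) did, and 7 of the 9 members lie there.

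Motifs were counted from 250 bp before to 50 bp after the same TSS, which for genes not bound was again the 5′ end of the gene record. An exact match to the ISRE pattern was found in 4 of 9 members (B2M, TAP1, TAPBP and NLRC5), and in 3.07% of all protein-coding promoters. Looser forms of the element were not searched, so a member without a match may still hold one. The ISRE matches printed between TAP1 and PSMB9 lay outside the PSMB9 window. An NF-κB match was found in 5 members (HLA-B, HLA-C, B2M, TAP1 and TAPBP), and in 12.6% of promoters. CCAAT was found in 5 members (HLA-B, HLA-C, B2M, TAP1 and PSMB9), and in 34.2% of promoters. The GC box was found in 5 members (TAP1, TAPBP, NLRC5, PSMB8 and PSMB9), and in 59.4% of promoters. The E-box was found in NLRC5 only, and in 8.50% of promoters, and no member held a GAS match, which 6.20% of promoters did. The members were thus mixed in motif content. TAPBP, lowest in fold enrichment, and TAP1, highest, both held the ISRE and the NF-κB match, and TAP2 held none of the 6 motifs in this window.

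The genes of the lists for other heavy chains, peptide loading and trimming, proteasome, interferon-γ pathway and enhanceosome had a promoter peak in all 3 replicates. The exception was HLA-G. The list for other heavy chains also holds MICA and MICB, which are class I-like genes and not heavy chains in the sense given above. Of this list, HLA-E, HLA-F, MICA and MICB were bound, and HLA-G had no promoter peak in any replicate. HLA-E, which presents leader peptides of other class I chains, reached 34.1, 24.8 and 21.5. All 8 genes of peptide loading and trimming were bound, as were all 7 further proteasome genes, all 8 genes of the interferon-γ pathway and all 8 factors of the class I enhanceosome. These counts stand beside the 60.2% of all protein-coding genes. CpG-island-like start sites were found in 4 of 5 genes of the heavy chain list, 6 of 8 loading genes and 6 of 7 proteasome genes. All 8 genes of either remaining list had one. The share bound among all genes with such a site was 83.1%, with the TSS chosen as above. The medians of mean percentiles were 47.5 for the members, 49.9 for bound genes of the heavy chain list and 56.2 for loading and trimming. They were 63.5 for the proteasome genes, 60.1 for the interferon-γ pathway and 62.1 for the enhanceosome factors. The ranges of these lists overlapped, and no list was tested against another.

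Counterparts of the members within these lists had mean percentiles from 24.0 (PSMB10) to 84.2 (PSMB5). PSMB5, the constitutive subunit that PSMB8 replaces, had 43.9, 29.5 and 31.8 in the order A, B1, B2, above PSMB8 in each replicate. PSMB6, which PSMB9 replaces, had 31.2, 16.6 and 19.4, below the peak shared by PSMB9 and TAP1 in each. PSMB10, the remaining inducible subunit, had 25.2, 12.9 and 11.2, and PSMB7, which it replaces, 29.5, 19.8 and 18.1. The inducible gene was thus lower in 2 of the 3 pairs, and higher in the pair of PSMB9 and PSMB6, on a peak it shares with TAP1. The direction of that pair turned with the peak given to PSMB9. With 1 TSS per gene PSMB9 took the PSMB8 peak (25.6, 15.5 and 13.6), which was below PSMB6 in each replicate. TAPBPL, a relative of tapasin, had 30.3, 14.6 and 13.1, above TAPBP in A and B1 and below it in B2.

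Of the MHC class II genes, 6 of 12 had a promoter peak in all 3 replicates, namely HLA-DRA, HLA-DPA1, HLA-DMA, HLA-DMB, CD74 and CIITA, beside the 60.2% of all protein-coding genes. Above a fold enrichment of 10 there were 2 of 12, HLA-DMA and CD74, beside 49.6%, where the class I set kept 9 of 9. HLA-DRB1, HLA-DPB1 and HLA-DQB1 had a peak in 2 replicates, HLA-DOA in 1, and HLA-DQA1 and HLA-DOB in none. Sequence uniqueness was not measured at these genes, and its part in the missing peaks was not tested. The count of 6 was 8 without B1, 7 without B2, 9 with a peak required in only 2 replicates and 4 with 1 TSS per gene. No difference between the class I and class II lists was tested. The 6 bound genes had a median fold enrichment of 16.8, 7.30 and 7.53, and the median of their mean percentiles was 9.44. CIITA, the class II counterpart of NLRC5, had 10.9, 4.68 and 4.89, below NLRC5 in each replicate. Of the 12 class II genes 1 had a CpG-island-like TSS, HLA-DMA, and it was the highest of the bound ones at 31.0, 18.5 and 16.4. CpG content moved with the difference between class I and class II genes, and its part in it was not tested.

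**Figure D5:**
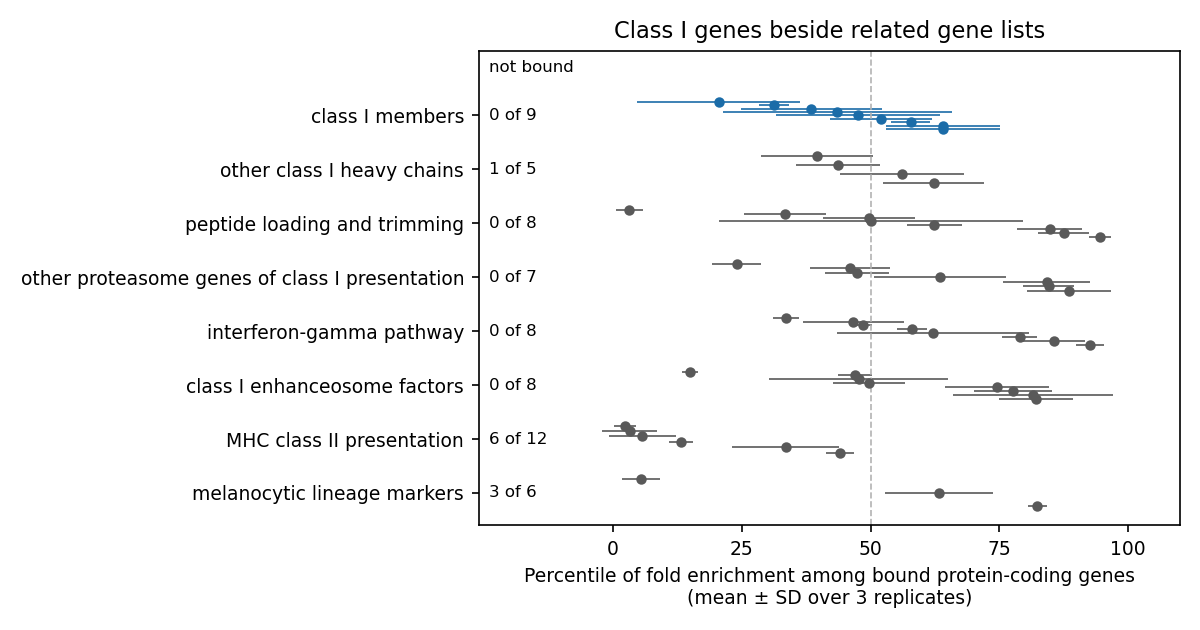
Mean percentile of fold enrichment among bound protein-coding genes (x axis, points with SD over 3 replicates) for each bound gene of the class I set and of the related lists, with the number of genes not bound written on the left and the 50th percentile dashed. The class I genes lie between 20.6 and 64.1, and the bound class II genes between 2.36 and 44.1.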

How the data were processed

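PHF8 ChIP-seq peak lists of 3 replicates were analysed. The 2 inputs have no peak list here. The authors' methods and the labels state alignment to hg19 (GRCh37) by Bowtie2 with default options, and the authors called narrow peaks with MACS in each replicate against input, without pooling. The submitters' processing notes also name Picard and bcl2fastq. The treatment of duplicates, read length and read totals are not given in the sources used here. The deposited fold enrichment is a linear ratio at the summit. The authors deposited p-values and q-values on a −log10 scale. The deposited score was not used. The study's q cutoff was read as below 0.05, which, like a fold enrichment above 1.5, removed no peak.

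TSSs were those of all transcripts of GENCODE release 44 lifted to GRCh37 (221337 gene and TSS pairs, with 19 pseudoautosomal Y copies left out). 0 peaks ran past a chromosome end. ChIP fragments were recovered as the whole number that gives both the fold enrichment, (n + 1) over (background + 1), and the Poisson p-value, which succeeded for 100% of peaks within 0.001 on the −log10 scale. Their exact Poisson intervals cover counting error only. Neighbouring members were compared by sign flips of log2 fold enrichment over replicates (exact permutation test, two-sided), adjusted by Benjamini-Hochberg over 7 pairs. The recovery of fragments and the assignment of peaks to promoters were tested on simulated data.

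The members and gene lists were chosen with earlier results of these data known. Named were all members, genes that share a member's peak in all replicates, counterparts of members, and list genes where 5 or fewer fell on 1 side. Python 3.11.15, pandas 2.3.3, NumPy 2.4.6, SciPy 1.17.1 and matplotlib 3.10.9 were used.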

Additional observations from a re-analysis of the deposited data

How the results depend on the processing

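No paired analysis was possible because there is 1 group with peak lists and the inputs have none. The count of 9 bound members was unchanged under 11 of 13 alternatives. With 1 TSS per gene (the 5′ end of the gene record) it was 8, as the HLA-B record starts farther than 1000 bp upstream of its peak, and the median distance of summits to the TSS rose from 78 to 284 bp. A fold enrichment above 20, added after seeing the data, left 2 members and 16 of the 44 bound genes of the other lists. Ranked among all peaks of a replicate, the median percentile of members was 71.0 in place of 47.5, and ranked by fragments TAP1 and PSMB9 rose from 64.1 to 85.1. With 1 TSS per gene PSMB9 fell to a percentile of 31.1 and from a mean fold enrichment of 27.3 to 18.2. Taking the peak whose summit is nearest to a TSS lowered the mean to 10.6 for PSMB9, below TAPBP (12.9), and to 19.9 for TAP1. The class II count of 6 ranged from 4 with 1 TSS per gene to 9 with a peak in at least 2 replicates, and was 2 above a fold enrichment of 10. The number of neighbouring pairs with the same direction in all replicates used was 0, 1 with fragments, and 1 to 3 when a replicate was left out. With fragments the log2 differences of HLA-C minus NLRC5 (−0.062) and HLA-B minus TAP2 (−0.018) changed sign. Leaving out a replicate gave −0.029 (without A) to 0.22 for TAP2 minus PSMB8, −0.0053 (without B1) to 0.22 for B2M minus HLA-C, −0.14 (without B1) to 0.30 for NLRC5 minus HLA-B and −0.17 (without B2) to 0.30 for HLA-C minus NLRC5. The cause was not tested. Fragment counts of 48 to 149 limit what can be ordered among members.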
